A study of Mus musculus with 3 samples.

Results

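The basement membrane genes Col4a1, Col4a2, Lama1, Lama5, Lamb1, Lamc1, Nid1, Hspg2, Sparc and Serpinh1 were described in mouse embryonic stem (ES) cells lacking Tet1, a 10-gene list chosen by name. Probes were assigned to a gene by the symbol in the array files, by accession or by synonym (Lamb1-1 is Lamb1), which gave 13 probes for 9 of the 10 genes, of 41174 probes in all. That rule found no probe for Hspg2. A perlecan mRNA probe on chromosome 4 was taken for Hspg2 from the description column, after its value on the wild type array had been seen, so counts are given over 9 genes and again with Hspg2. RNA was measured on 3 Agilent 1-colour oligonucleotide arrays, with 2 Tet1 KO samples (KO 4 and KO 22) against 1 Tet1 WT sample. All were V6.5 ES cells of mixed 129 and C57BL6 background, grown with leukaemia inhibitory factor (LIF) on irradiated feeder cells and preplated, a step that removes attached feeders, before RNA was taken. The labels do not say whether the KO samples are separate clones or cultures, and the design text speaks of mice, so each p-value reflects no more than the spread of these samples, and that spread may be technical.

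A basement membrane is a thin sheet of extracellular matrix beneath epithelia and around many other cells. Laminins, which are trimers of an alpha, a beta and a gamma chain, and type IV collagen each form a network, and nidogen and the heparan sulphate proteoglycan perlecan link them. In the early mouse embryo the primitive endoderm and its parietal derivative secrete much of this matrix, and fibroblasts also make type IV collagen and Sparc.

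Type IV collagen chains are encoded by gene pairs that lie head to head, and the promoter windows of 3 members are shown because one such pair overlaps and the third has the fewest CpG dinucleotides of the members found. RefSeq windows of 250 bases before to 50 bases after the start (build GRCm38.p6) were found for 8 of the 10 genes, Lama1 and Lamc1 being the others. CpG dinucleotides are in capitals, and each line runs 5′ to 3′ on the gene's own strand. The windows lie at chr8:11312777-11313076 (minus strand, Col4a1), chr8:11312555-11312854 (plus strand, Col4a2) and chr11:55420031-55420330 (minus strand, Sparc).
Col4a1: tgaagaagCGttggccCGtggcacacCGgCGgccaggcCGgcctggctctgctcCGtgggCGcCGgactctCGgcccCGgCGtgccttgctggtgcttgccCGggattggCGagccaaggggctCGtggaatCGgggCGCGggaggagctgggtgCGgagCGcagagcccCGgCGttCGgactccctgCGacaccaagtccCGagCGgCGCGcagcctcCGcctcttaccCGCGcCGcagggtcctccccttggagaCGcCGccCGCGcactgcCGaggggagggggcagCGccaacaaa
Col4a2: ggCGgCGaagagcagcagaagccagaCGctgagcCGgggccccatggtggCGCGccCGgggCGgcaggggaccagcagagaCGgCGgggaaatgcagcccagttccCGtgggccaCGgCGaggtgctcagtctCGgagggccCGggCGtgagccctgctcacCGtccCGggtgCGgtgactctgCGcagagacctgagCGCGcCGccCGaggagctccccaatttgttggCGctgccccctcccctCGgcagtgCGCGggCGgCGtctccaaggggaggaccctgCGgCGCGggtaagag
Sparc: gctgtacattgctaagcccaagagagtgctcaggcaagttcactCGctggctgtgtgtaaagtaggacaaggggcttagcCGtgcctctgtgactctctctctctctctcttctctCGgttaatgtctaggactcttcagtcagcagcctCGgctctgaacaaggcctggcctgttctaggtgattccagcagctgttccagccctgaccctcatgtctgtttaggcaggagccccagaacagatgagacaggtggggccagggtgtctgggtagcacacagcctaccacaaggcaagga
The Col4a1 and Col4a2 windows share 78 bases, from 11312777 to 11312854, which hold 9 CpG. Col4a1 had 37 CpG in its window, Col4a2 33, Hspg2 27, Lama5 24, Nid1 20, Lamb1 18, Serpinh1 16 and Sparc 4. The median over all 32851 windows of the same length was 7, with quartiles of 3 and 20. The letters GGGCGG, searched on both strands, were present in 7 of the 8 windows and in 35.7% of all windows, and CCAAT in 4 of the 8 and in 37.4% of all. These counts describe letters and show no binding.

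The scanner software flagged 62.2% to 62.8% of non-control spots per array as well above background and 0 as saturated, and the number of arrays limits the precision. Processed intensities of the Tet1 probe were 214 on KO 4 and 195 on KO 22, against 721 on WT, a difference of -1.94 ± 0.09 (log2, SE) with a limma adjusted p of 0.0528. The comparison asks which genes differ between Tet1 KO and Tet1 WT cells. Below, a difference is the log2 level on a KO array minus that on the WT array, where a level is the log2 processed intensity minus the array's 75th percentile, and ± gives limma's SE. Over the 17727 genes tested the median difference was -0.03.

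At an adjusted p below 0.05, 0 of the 9 members passed in either direction, and 0 of 10 with Hspg2, beside 0.355% of all genes tested (0.0338% higher and 0.322% lower). Of the 14 member probes 0 passed in the fit over all probes, where 0.331% did. At an unadjusted p below 0.05, 1 of 10, Lama1, was lower in KO, where 14.9% of all genes were lower and 13.2% higher. Apart from Lama1 the mean differences of the members lay between -0.19 and 0.27, and the median was 0.01 over 9 genes and 0.03 over 10. Both KO arrays were above WT for 5 of the 10 members and below it for 3, where 38% and 45.5% of all genes were.

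**Figure D1:**
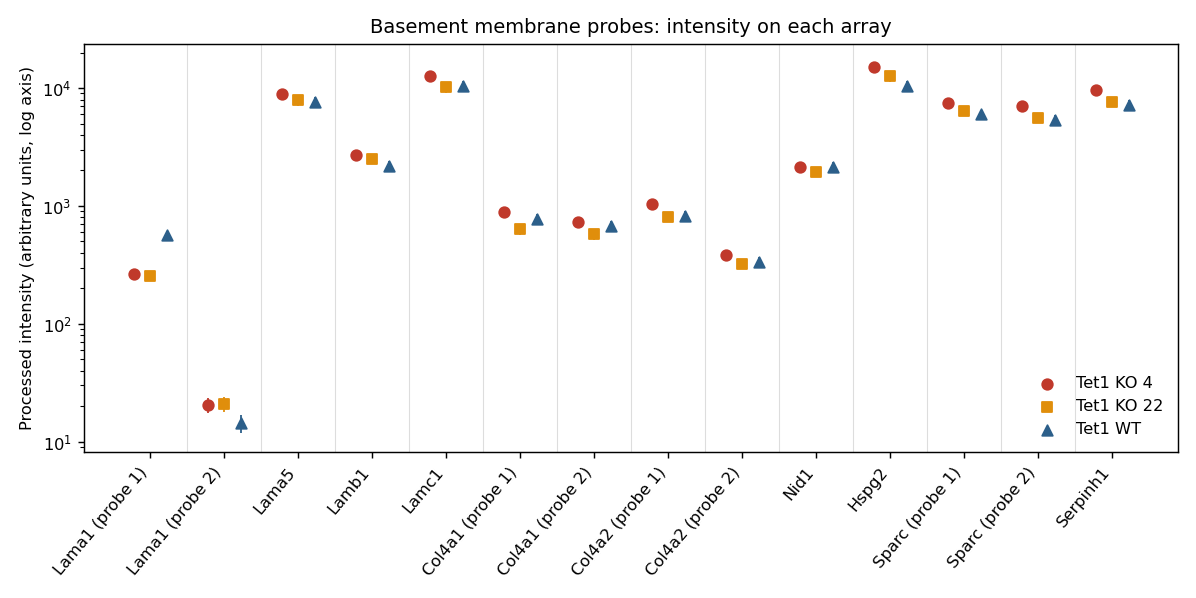
Processed intensity (arbitrary units, log axis) of the 14 member probes on the KO 4, KO 22 and WT arrays, with the scanner software's error as bars where it exceeds the symbol. For the first Lama1 probe both KO arrays (265 and 255) lie below WT (562), and levels of different probes are not comparable.

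Laminin alpha 1, encoded by Lama1, is the alpha chain of laminin-111, the main laminin of the early embryo. Its brighter probe (chr17:66089045-66090007, plus strand, build mm7, as for all probe positions here) read 265 (KO 4) and 255 (KO 22) in intensity, against 562 on WT. Both KO arrays were below WT, with differences of -1.29 on KO 4 and -1.19 on KO 22, while they differed from each other by -0.09. The mean difference was -1.24 ± 0.10, a 2.36-fold lower level in KO, with an unadjusted p of 0.00106 and a limma adjusted p of 0.0906, which missed the threshold. In RNA of a bulk culture, fewer cells of a type and less RNA per cell cannot be told apart. A difference this low or lower was found for 1.39% of the genes tested. At least 2-fold lower on both KO arrays were 1 of the 10 members, Lama1, and 1.56% of all genes, while 0 members and 1.44% of all genes were at least 2-fold higher. Of the 22 spots within 2 rows and 2 columns of the probe, 0 were at least 4-fold brighter on WT than on both KO arrays. That cut-off, chosen after the values were seen, lies above the 2.36-fold difference of the probe. The count therefore says nothing about a local effect of that size.

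A second Lama1 probe (chr17:66077770-66077829, plus strand), named by the file from a clone sequence, was dim, reading 20.5 (KO 4) and 20.8 (KO 22), against 14.3 on WT. Both KO arrays lay above WT, so the probes differ in direction. Its difference was 0.41 ± 0.13, with a limma adjusted p of 0.170 over all probes. With the mean of both probes in place of the brighter one, the Lama1 difference was -0.42 with an adjusted p of 0.152. The Lama1 adjusted p was below 0.05 under 4 of the 8 settings run, between 7.56e-07 and 0.170 in all.

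The other laminin chains were close to WT. Lama5 (chr2:180677286-180677300, minus strand), the laminin alpha 5 chain, had 8868 on KO 4 and 7898 on KO 22, against 7599 on WT, a difference of 0.01 ± 0.09 (limma adjusted p 0.935). Its only probe was named by symbol, and the position given for it spans 15 bases. Lamb1 (chr12:29168364-29169711, plus strand), the beta chain of laminin-111, had 2719 on KO 4 and 2504 on KO 22, against 2169 on WT, a difference of 0.14 ± 0.09 (limma adjusted p 0.383). Both KO arrays were above WT for these genes, by less than 2 SE. Lamc1 (chr1:153180095-153180153, minus strand), the gamma chain of most laminins, had 12737 on KO 4 and 10143 on KO 22, against 10508 on WT, a difference of -0.01 ± 0.12 (limma adjusted p 0.959), and WT lay between the KO arrays. Within an array, where any scaling cancels, the log2 ratio of Lama1 to Lamb1 differed from that on WT by -1.41 on KO 4 and -1.35 on KO 22. For Lama1 to Lama5 the difference was -1.31 on KO 4 and -1.20 on KO 22, and for Lama1 to Lamc1 -1.36 on KO 4 and -1.09 on KO 22. Those 3 ratios use the brighter Lama1 probe alone, so they restate its difference, and they have no test of their own. The dim second probe, above WT on both KO arrays, was not used in them.

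**Figure D2:**
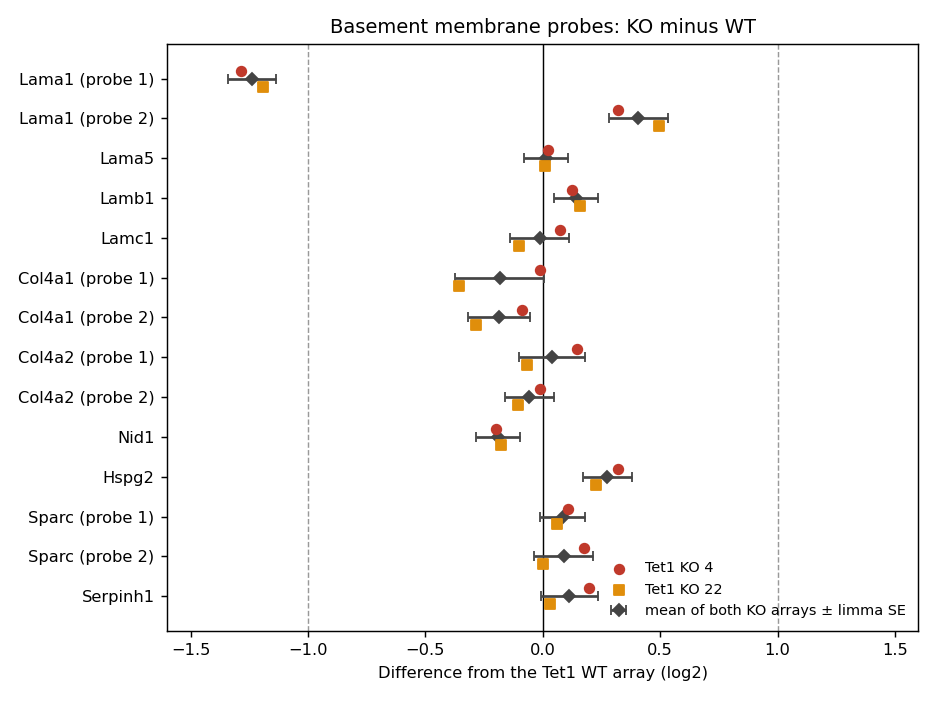
Difference from the WT array (log2) of the 14 member probes on KO 4 and KO 22, with the mean and limma's SE as a diamond with bars, and dashed lines at a 2-fold difference. The brighter Lama1 probe lies at -1.24, its dim second probe at 0.41, and the others between -0.19 and 0.27.

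Col4a1 and Col4a2 encode the chains of the ubiquitous type IV collagen. Col4a1 (probe at chr8:11167020-11167079, minus strand) had 892 on KO 4 and 632 on KO 22, against 782 on WT, and WT lay between the KO arrays in intensity. Scaled by the 75th percentile, both KO arrays were below WT, with differences of -0.01 on KO 4 and -0.36 on KO 22. Its difference was -0.18 ± 0.19 (limma adjusted p 0.571). A second probe (chr8:11167857-11169691) had 734 on KO 4 and 575 on KO 22, against 677 on WT, a difference of -0.19 ± 0.13. Col4a2 (chr8:11416851-11416910, plus strand) had 1040 on KO 4 and 805 on KO 22, against 817 on WT, so the groups overlapped here too. Its difference was 0.04 ± 0.14 (limma adjusted p 0.873). A second probe (chr8:11416191-11416250) had 384 on KO 4 and 323 on KO 22, against 336 on WT, a difference of -0.06 ± 0.10. For the pair whose windows overlap, then, no difference was detectable at this spread. KO 4 exceeded KO 22 in level for both genes, by 0.34 and 0.21.

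Nid1 (chr13:12854881-12854940, plus strand), nidogen 1, a linker of the laminin and collagen networks, had 2139 on KO 4 and 1954 on KO 22, against 2137 on WT. Relative to each array's 75th percentile both KO arrays were below WT, with a difference of -0.19 ± 0.09 (limma adjusted p 0.274). Hspg2 (chr4:136948918-136948977, plus strand), perlecan, had 14982 on KO 4 and 12605 on KO 22, against 10413 on WT. Both KO arrays were above WT, with a difference of 0.27 ± 0.10 (limma adjusted p 0.208), and the adjusted p stayed at 0.0611 or above under all 8 settings. A clone also described as perlecan maps to chromosome 13, away from the chromosome 4 probe, and was left out after its values were seen. It had 14.5 on KO 4 and 9.95 on KO 22, against 3.73 on WT, well above background on KO 4 alone.

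Sparc (chr11:55351268-55351327, minus strand), a collagen-binding glycoprotein, had 7402 on KO 4 and 6450 on KO 22, against 5976 on WT, a difference of 0.08 ± 0.09 (limma adjusted p 0.585). Its second probe (chr11:55352704-55355361) had 7009 on KO 4 and 5576 on KO 22, against 5390 on WT, a difference of 0.09 ± 0.13. Serpinh1 (chr7:95376252-95376313, minus strand), the collagen chaperone HSP47, had 9543 on KO 4 and 7664 on KO 22, against 7246 on WT, a difference of 0.11 ± 0.12 (limma adjusted p 0.574). For Serpinh1 the difference was 0.19 on KO 4 and 0.03 on KO 22, so the KO arrays differed from each other by more than KO 22 did from WT.

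Genes that work with the members were counted in 4 lists. In each, 0 genes passed the adjusted threshold in either direction, where 0.0338% of all genes passed as higher and 0.322% as lower. Of 17 other structural genes tested (of 22 listed), 7 were higher in KO and 0 lower (unadjusted p below 0.05), beside 13.2% and 14.9% of all genes. Their median difference was 0.29. Npnt, an integrin ligand, had 27.7 and 21.5 on KO 4 and KO 22, against 12.0 on WT. Fras1, a protein of embryonic basement membranes, was not well above background on WT. It had 25.8 on KO 4 and 15.4 on KO 22, against a reading of 6.93 on WT. Egfl6, an integrin-binding matrix protein, was also not well above background there, and had 22.8 on KO 4 and 23.4 on KO 22, against a reading of 12.7 on WT. The differences of Npnt, Fras1 and Egfl6 were 0.13, 0.13 and 0.09 with normexp background correction. Nid2, the second nidogen, differed from WT by 0.35 ± 0.09, and the log2 ratio of Nid1 to Nid2 differed from that on WT by -0.52 on KO 4 and -0.55 on KO 22.

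Of 13 receptors tested, 5 had higher levels in KO and 0 lower (unadjusted p below 0.05), beside 13.2% and 14.9% of all genes. Their median difference was 0.24. Itgb4, the laminin-binding integrin beta 4, had 2286 on KO 4 and 2073 on KO 22, against 1345 on WT, a difference of 0.57 ± 0.09 (limma adjusted p 0.106). Sdc4, a heparan sulphate proteoglycan of the cell surface, had 0.61 ± 0.10 and Itga3, an integrin alpha chain, 0.57 ± 0.17. Itga1, a collagen-binding integrin alpha chain, was not well above background on WT, and had 27.8 on KO 4 and 16.7 on KO 22, against a reading of 11.7 on WT. Its difference without KO 4 was 0.47, and with normexp background correction 0.12.

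Of 20 genes of collagen maturation and crosslinking, 0 passed the unadjusted test as higher in KO and 5 as lower. Of all genes 13.2% and 14.9% did. The median difference of the 20 was -0.10. Crtap, a partner of the prolyl 3-hydroxylase P3h1, had 5262 on KO 4 and 4580 on KO 22, against 6208 on WT, a difference of -0.46 ± 0.09 (limma adjusted p 0.120). P4hb, a subunit of prolyl 4-hydroxylase, differed by -0.43 ± 0.10 and P3h1 by -0.43 ± 0.16. Lox, a crosslinking enzyme, differed by 0.57 ± 0.37, less than 2 SE.

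Of 16 matrix proteases and inhibitors, 4 passed the unadjusted test as higher in KO and 1 as lower, beside 13.2% and 14.9% of all genes. Their median difference was 0.28. Bmp1, a procollagen protease, had 924 on KO 4 and 592 on KO 22, against 248 on WT, a difference of 1.45 ± 0.26 (limma adjusted p 0.112). With the mean of its probes in place of the brightest one it was 0.80. Adamts1, a secreted metalloprotease, differed by 0.87 ± 0.25, and Mmp9, a gelatinase, by 0.63 ± 0.11.

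**Figure D3:**
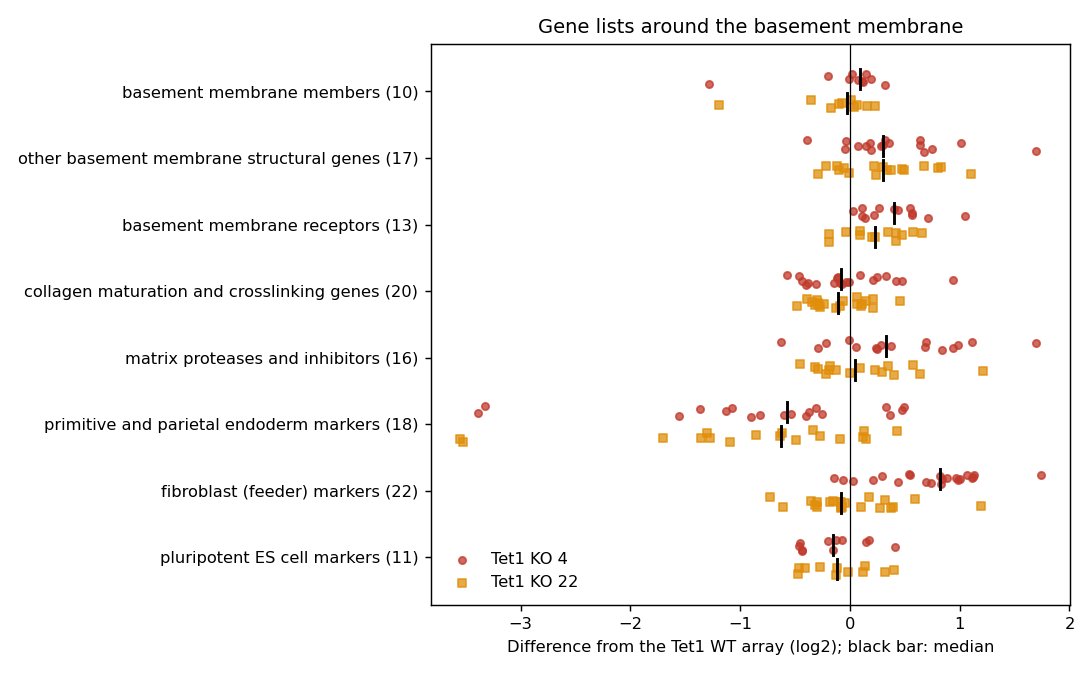
Difference from the WT array (log2) of each tested gene of 8 lists on KO 4 and KO 22, with the number of genes in brackets and black bars at the medians. The endoderm markers reach -3.46 on the mean of both KO arrays, and the fibroblast markers have medians of 0.82 (KO 4) and -0.08 (KO 22).

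Markers of cells that make basement membrane were read beside the members. Of 18 endoderm markers tested, 13 were lower in KO and 1 higher at an unadjusted p below 0.05, beside 14.9% and 13.2% of all genes. The adjusted threshold was passed by 2 as lower in KO, beside 0.322% of all genes. Cubn, an endocytic receptor of visceral endoderm, had 49.0 on KO 4 and 40.0 on KO 22, against 447 on WT (limma adjusted p 0.0344). Srgn, a proteoglycan core protein, had 227 on KO 4 and 174 on KO 22, against 1970 on WT (limma adjusted p 0.0438). Both fell, with differences of -3.46 ± 0.11 and -3.44 ± 0.15, and both KO arrays lay far below WT. Sox17 and Foxa2, endoderm transcription factors, differed by -1.36 ± 0.09 and -1.63 ± 0.12, and neither passed here, while both passed under 4 of the 8 settings run. Both KO arrays were below WT for 13 of the 18 and above it for 3, where 45.5% and 38% of all genes were. Those 3 were Amn (0.39 ± 0.09, the 1 higher at the unadjusted p), Lrp2 (0.32 ± 0.19) and Fst (0.30 ± 0.20). With normexp 8 endoderm markers were called lower and 1 higher, beside 1924 and 1398 of 17725 genes tested. With the intensity trend 8 were called lower and 1 higher, beside 1877 and 1459 of 17727. With the series matrix 7 were called lower, beside 499 of 17727, and with the filter on all 3 arrays 7, beside 416 of 16407. The list's summed level, on a linear scale relative to each array's 75th percentile, was 6.28 on KO 4 and 5.57 on KO 22, against 10.3 on WT. Srgn alone held much of that gap. In unscaled intensity the list summed to 4510 on KO 4, 3593 on KO 22 and 6432 on WT, of which Srgn was 227, 174 and 1970. No sum was taken without Srgn. Lama1 was lower together with most of these markers, and their part in its difference was not tested.

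Of 22 fibroblast markers, 0 passed the adjusted threshold in either direction, beside 0.355% of all genes. At an unadjusted p below 0.05, 2 were higher in KO and 0 lower, beside 13.2% and 14.9% of all genes. Their median difference was 0.36. The summed level was 65.4 on KO 4 and 50.003 on KO 22, against 41.5 on WT. Without Tagln, left out after its values were seen, the sum over the other 21 was 38.1 on KO 4 and 31.4 on KO 22, against 33.3 on WT, so KO 22 was then below WT. Both KO arrays were above WT for 8 of the 22 and below it for 2, and for 12 they lay on opposite sides. KO 4 exceeded KO 22 for 21 of 22, by a median of 0.74, where it did so for 47% of all genes. Col1a1, a fibrillar collagen chain, had 767 on KO 4 and 399 on KO 22, against 319 on WT, and Col5a1, another, differed by 0.85 ± 0.28. Tagln, a contractile protein, differed by 1.47 ± 0.29 and Twist2, a transcription factor, by 0.74 ± 0.38. Among the 10 members KO 4 was above KO 22 for 7, and the part of these cells in the members' levels was not tested. Of 11 ES cell markers, 1 passed the unadjusted test as higher in KO and 3 as lower, beside 13.2% and 14.9% of all genes. Klf4 differed by 0.40 ± 0.09, Pou5f1 by -0.47 ± 0.09, Esrrb by -0.47 ± 0.09 and Lin28a by -0.43 ± 0.09, and none passed here, while all 4 passed with normexp and with the intensity trend.

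**Figure D4:**
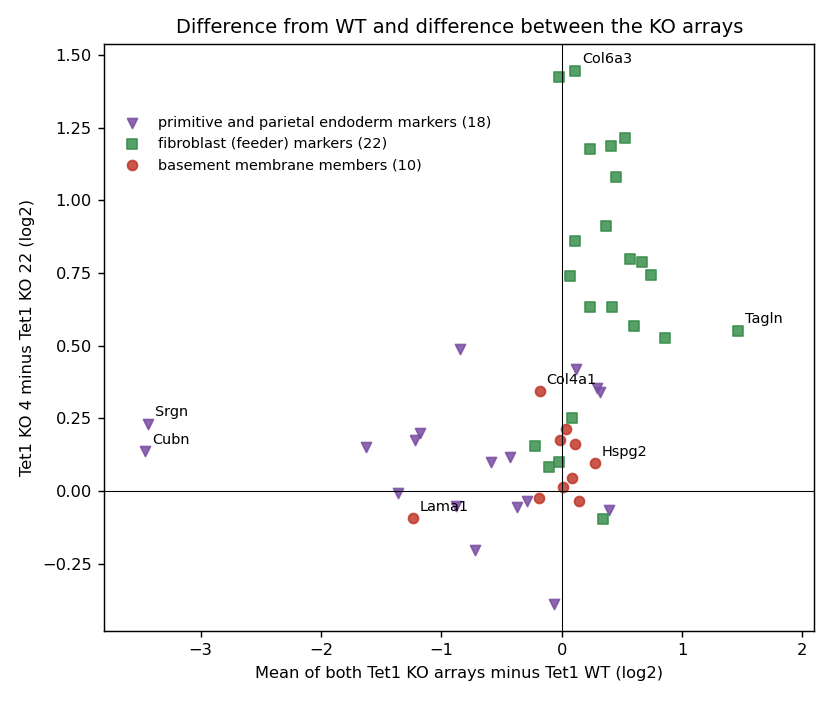
Mean of both KO arrays minus WT (log2, horizontal) against KO 4 minus KO 22 (log2, vertical) for members, endoderm markers and fibroblast markers. Lama1 lies at -1.24 and -0.09, and fibroblast markers have a median of 0.74 on the vertical axis.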

How the data were processed

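Spot intensity in the deposited scanner files comes from Agilent Feature Extraction 10.1.1.1, background-subtracted and detrended within each array, per the file headers. The deposited series matrix holds log2 values whose columns share 1 median, 5.52; whether their background was corrected is unknown. The submitters' processing notes name limma. From the scanner files, the log2 of each processed intensity was taken relative to the array's 75th percentile, outlier-flagged spots were left out and repeated spots averaged. Of 41174 probes, 79.5% were named through the reference table (GRCm38.p6); probe positions are on mm7, as the files give them, and exons were not assigned. Probes well above background on at least 1 array were tested, with the brightest probe per gene.

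limma 3.58.1 (R 4.3.3, lmFit and eBayes) compared 2 KO arrays with 1 WT array, with Benjamini-Hochberg adjustment over 17727 genes called at 0.05. Residual degrees of freedom were 1, and 3.04 after moderation, and the fit assumes that WT varies like the KO arrays. Alternatives were quantile normalization, normexp (offset 50), the series matrix, other filters, an intensity trend, the mean of a gene's probes and each KO array left out. Normexp was run only without the WT spots dimmer than their local background, which an earlier account had found to distort it.

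On simulated arrays, sizes of change were recovered under both models of spread tried. Calls were recovered under the moderated spread that limma assumes. The planted changes were all larger than any member difference, so changes of the members' size were not tried. With a heavier-tailed spread drawn from the gap between the KO arrays, tried first, no changed gene was called, so a low count of calls says little about the absence of change.

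The members and lists were chosen with earlier results of these data known. Named genes are all members with every probe, up to 4 genes per list with the largest mean difference, any list gene that passed, and Tet1. Some genes that this rule names are not reported here. Nid2, Amn, Lrp2 and Fst were added after their values were seen, as were the motif and neighbour-spot checks, the ratios of chains and the Hspg2 probe.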

Additional observations from a re-analysis of the deposited data

How the results depend on the processing

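Across 8 settings the members Col4a1, Lama1, Lamb1, Nid1, Hspg2, Sparc and Serpinh1 kept their direction. The directions of differences near 0 turned: Col4a2 was -0.0092 with the mean of its probes, Lama5 -0.027 with normexp, Lamc1 0.058 with quantile normalization, 0.0090 with normexp and 0.077 with the series matrix, and the dim Lama1 probe -0.018 with normexp. Lama1 was the 1 member called lower under normexp, the series matrix, the filter on all 3 arrays and the intensity trend (1 each, adjusted p 7.56e-07, 0.0240, 0.0377 and 0.00369), and was not called with quantile normalization (0.0927), no filter (0.170) or the mean of its probes (0.152). All genes called, 6 higher and 57 lower of 17727 tested, became 1398 and 1924 of 17725 under normexp. They became 480 and 499 of 17727 with the series matrix, and 1459 and 1877 of 17727 with the intensity trend. With the filter on all 3 arrays they were 513 and 416 of 16407. With no filter limma called 0 and 0 of 27651, and 5964 genes had an unadjusted p below 0.05. The 4 partner lists had 17, 13, 20 and 16 genes tested in the main setting. Genes of these lists called higher were 12 under normexp, 2 with the series matrix, 2 with the filter on all 3 arrays and 11 with the trend. Those called lower were 6 under normexp and 5 with the trend. Endoderm markers called, 0 higher and 2 lower of 18, became 1 and 8 of 18 under normexp and the trend. They became 0 and 7 of 18 with the series matrix, and 0 and 7 of 17 with the filter on all 3 arrays. Fibroblast markers called higher, 0 of 22, became 5 under normexp and 2 with the trend. Of 11 ES cell markers, those called became 1 higher and 3 lower under both. The cause of these shifts was not tested. Srgn missed the threshold with quantile normalization (0.0596) and with no filter (0.170), and Cubn with no filter (0.170). Normexp shrank the differences of the list genes Itga1 to 0.12, Mmp9 to 0.22, Twist2 to 0.21, Lox to 0.32 and Sox17 to -0.76, and the mean of probes that of Col5a1 to 0.45. Without KO 4, Itga1 was 0.47, Lox 0.21 and Twist2 0.37, and without KO 22, Lox was 0.94 and Twist2 1.11. Leaving out either KO array left the median difference of the members between -0.03 and 0.09, and gave no test, since 1 array against 1 has no residual degrees of freedom. No paired analysis was possible because the groups share no replicate numbers. Dim probes near background, such as the second Lama1 probe, limit what signal can show.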
